A study of Homo sapiens with 5 samples.

Results

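VMA21 and 9 genes of the vacuolar proton pump were followed through 5 poly(A) RNA libraries of HEK293 cells. They are 10 of the 18257 gene symbols in the deposited count table and were taken from it by name. VMA21 was picked because its level after DICER1 siRNA was known to be low, so its values in comparisons that use the DICER1 libraries are given as a description, without a test. The other 9 genes were chosen with results of these libraries known. Of the 10 genes, 9 passed the filter on low counts, and ATP6V0C did not.

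HEK293 is a human embryonic kidney line, used here as a T-REx Flp-In derivative in which every library, the mock included, carries a FLAG-tagged DICER1 insert. Cells were transfected with siRNA against DICER1 (siRNA 1 and siRNA 2, 1 library each), with siRNA against DROSHA (siRNA 1 and siRNA 2, 1 library each), or mock-transfected (1 library), and RNA was taken at 18 h. DICER1 is the cytoplasmic nuclease of the microRNA pathway and DROSHA the nuclear one that acts before it. The design text names the DROSHA and mock libraries as controls for the effect of DICER1 on gene regulation. No source used here gives the siRNA sequences. The labels do not name separate cultures, so the spread behind the errors and p-values may be technical. That spread comes from within the siRNA pairs, whose libraries also differ in the siRNA used, since the mock is 1 library. In bulk RNA, fewer cells of a kind and less RNA per cell cannot be told apart.

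The vacuolar proton pump, or V-ATPase, moves protons into lysosomes, endosomes, the Golgi and secretory granules. Its peripheral V1 sector splits ATP and turns a rotor, and its membrane-bound V0 sector carries the protons through a ring of proteolipid subunits and the large subunit a. VMA21 is a small membrane protein of the endoplasmic reticulum that guides assembly of V0 and is not part of the finished pump. Inherited loss of VMA21 function causes an X-linked myopathy with excess autophagy, since poorly acidified lysosomes degrade their contents slowly.

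Totals ran from 7620206 to 8736455 counts per library, and 12234 genes were tested. The targeted mRNA was lower in each knockdown: DICER1 had 243 CPM in the mock against 74.1 and 67.7 CPM after DICER1 siRNA, and DROSHA had 191 CPM in the mock against 41.2 and 41.9 CPM after DROSHA siRNA. After DROSHA siRNA, DICER1 mRNA was above the mock, at 282 and 333 CPM. That is a log2 fold change of 0.34 ± 0.12 (SE, edgeR quasi-likelihood test, adjusted p = 0.978). DROSHA stood at 194.5 and 193 CPM after DICER1 siRNA. CPM is the count as a share of the library total after TMM scaling, in the usual CPM unit. Native and tagged DICER1 mRNA were counted together. Of 9 genes listed for this embryonic kidney line, all 9 passed the filter, with a summed level between 718 and 785 CPM. The sum hides wider differences of single genes. Their log2 fold changes ran from -0.46 to 0.36 in DICER1 siRNA and from -1.01 to 0.39 in DROSHA siRNA against mock. Of 8 markers of other cell types 7 were in the table, with a summed level between 38.2 and 44.5 CPM. PTPRC and COL1A2 had no read in any library, while COL1A1, ACTA2 and HBB passed the filter. The part of these markers in the results below was not tested. All pairs of libraries differed by more than sampling noise, with a chi-square per degree of freedom from 2.73 for the DICER1 pair to 10.1.

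VMA21 mRNA was lower in both DICER1 libraries than in the mock and in both DROSHA libraries. Its level was 184 CPM in the mock, 81.3 and 82.5 CPM after DICER1 siRNA 1 and 2, and 169 and 214 CPM after DROSHA siRNA 1 and 2. The DICER1 values do not overlap those of any other library, and the mock lies between the DROSHA libraries. As counts these were 1544 in the mock, 621 and 686 after DICER1 siRNA, and 1474 and 1675 after DROSHA siRNA, so that counting alone leaves an error between 2.44% and 4.01% of each value. The group means were 81.9 ± 0.888 CPM (SD, n = 2) after DICER1 siRNA and 191 ± 31.3 CPM (SD, n = 2) after DROSHA siRNA. The fitted log2 fold change from mock to DICER1 siRNA was -1.16 ± 0.14 (SE), which is 2.24-fold lower. From DROSHA to DICER1 siRNA it was -1.22 ± 0.12, or 2.33-fold lower. From mock to DROSHA siRNA it was 0.06 ± 0.14, a difference within its error (edgeR quasi-likelihood test, adjusted p = 0.989).

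Both siRNAs against DICER1 gave nearly the same VMA21 level, with siRNA 2 at 1.02 times siRNA 1. Between the siRNAs against DROSHA the ratio was 1.26. Of 10615 genes averaging 5 CPM or more, VMA21 had the 4th lowest ratio to the mock in the library of DICER1 siRNA 1 and the 18th lowest in that of siRNA 2. Its rank was 2294 after DROSHA siRNA 1 and 9226 after DROSHA siRNA 2.

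**Figure D1:**
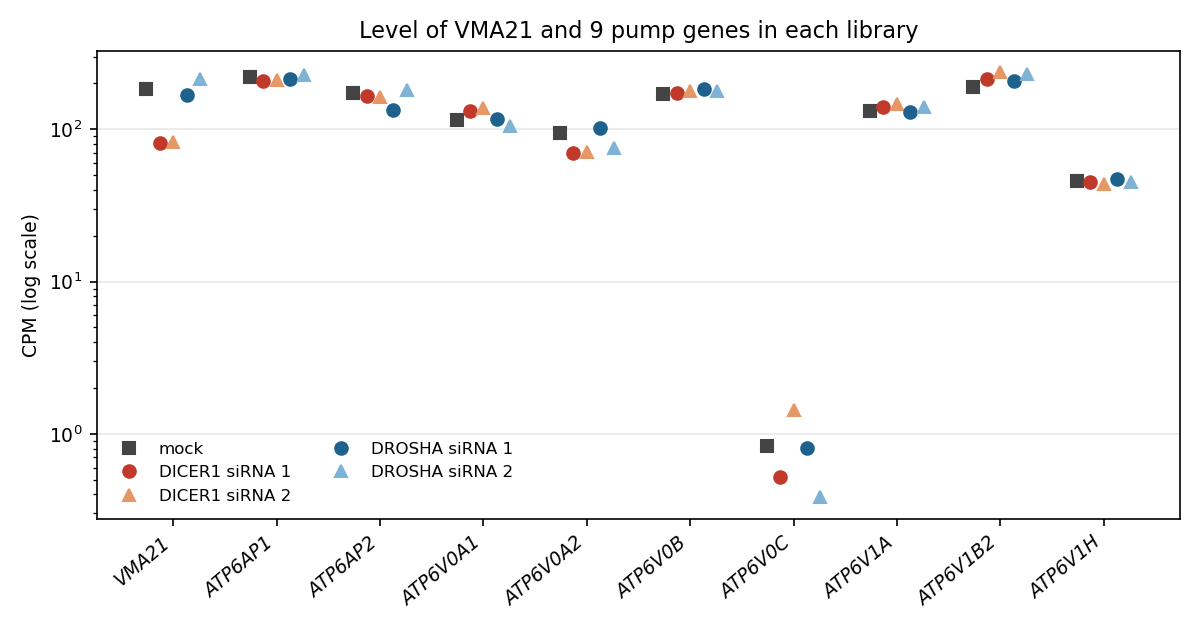
Level of each of the 10 genes in CPM (log scale) in the mock, DICER1 siRNA and DROSHA siRNA libraries, 1 symbol per library. VMA21 stands at 81.3 and 82.5 CPM in the DICER1 libraries and between 169 and 214 CPM in the other 3, while ATP6V0C lies at or below 1.44 CPM in every library.

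The VMA21 gene lies on the forward strand of chromosome X, at positions 151396515 to 151409364 of GRCh38 in GENCODE 29 (ENSG00000160131.13), and shares no exon base with another annotated gene. The counts were made on hg19, and no coordinate was carried between the builds. Its longest annotated transcript has a 3' UTR of 4306 bases, the longest among the 10 genes. This 3' UTR holds the 7 bases AATCTAA at 3 places. The motif is shown because, among 16245 motifs of this length scanned on the sense strand of 3' UTRs, it is the one whose holders were lowest relative to other genes in the library of DICER1 siRNA 1, and also in that of DICER1 siRNA 2. It was thus picked from these same libraries, which share 1 mock, and is no independent support for the VMA21 value. The 3 sites follow, with the motif in capitals, 5' to 3', and site 1 at bases 1006 to 1012 after the stop codon, site 2 at 2786 to 2792 and site 3 at 3674 to 3680:
VMA21 site 1: taattatgtgcAATCTAAaaacactccca
VMA21 site 2: tgtttcatggaAATCTAAcagaaatacat
VMA21 site 3: gggactttgggAATCTAAtgataaatatt
None of the other 9 genes holds the motif in its longest 3' UTR. Among the 16 other subunit genes of the pump, 2 hold it once: ATP6V1E1, a subunit of the stalk that holds V1 still, and ATP6V1G3, which had no read here.
ATP6V1E1 site: atgtgatttaaAATCTAAgccatgaatat

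Of 12093 tested genes with a 3' UTR of at least 50 bases, 1609, or 13.3%, hold AATCTAA. Their median log2 ratio to the mock was -0.08 after DICER1 siRNA 1 and -0.11 after DICER1 siRNA 2, against 0.01 and 0.02 for genes without it. After DROSHA siRNA 1 the medians were -0.04 with the motif and 0.003 without it, and after DROSHA siRNA 2 they were -0.007 and 0.0006. In the DROSHA libraries the motif ranked 1114 and 5664 of 16245 from the lowest. The medians with the motif thus lay below the mock by more in the DICER1 libraries than in the DROSHA libraries. All were small beside the VMA21 value. Since the motif was picked from the DICER1 libraries, this difference is no independent result.

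Genes with more sites had lower median ratios in the DICER1 libraries and, by less, after DROSHA siRNA 1. The motif was picked for low holders in the DICER1 libraries, so the order there is no independent support for it. After DICER1 siRNA 2 the median log2 ratio was -0.10 over 1328 genes with 1 site, -0.17 over 226 genes with 2 and -0.24 over 55 genes with 3 or more, and after DICER1 siRNA 1 these medians were -0.07, -0.12 and -0.13. Of the 55 genes with 3 or more sites, 80.0% were below the mock in each of the DICER1 libraries, as were 48.0% and 46.0% of the 10484 genes with none. After DROSHA siRNA 1 the medians for 1, 2 and 3 or more sites were -0.04, -0.04 and -0.06, and 69.1% of those 55 genes were below the mock, beside 49.3% of genes with none. After DROSHA siRNA 2 the medians were -0.01, -0.005 and 0.03, and the shares 38.2% and 49.8%. The DROSHA libraries thus differ from each other in this pattern. Genes with more sites also have longer 3' UTRs, with a median of 1254.5 bases for genes without a site and 5801 for genes with 3 or more. Within 3' UTRs of 3000 to 6000 bases, which include VMA21, the medians after DICER1 siRNA 2 were -0.12 for 609 genes with a site and 0.01 for 1539 genes without, and after DICER1 siRNA 1 -0.08 and -0.009. In the same length range they were -0.05 and -0.02 after DROSHA siRNA 1, and -0.003 and -0.006 after DROSHA siRNA 2. The part of 3' UTR length in these medians was not tested. VMA21 had the lowest mean ratio over the DICER1 libraries of the 55 genes with 3 or more sites, and the 2nd lowest of all 1609 holders. VMA21 and the motif were both picked for low values in these libraries, so nothing is read from these ranks.

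**Figure D2:**
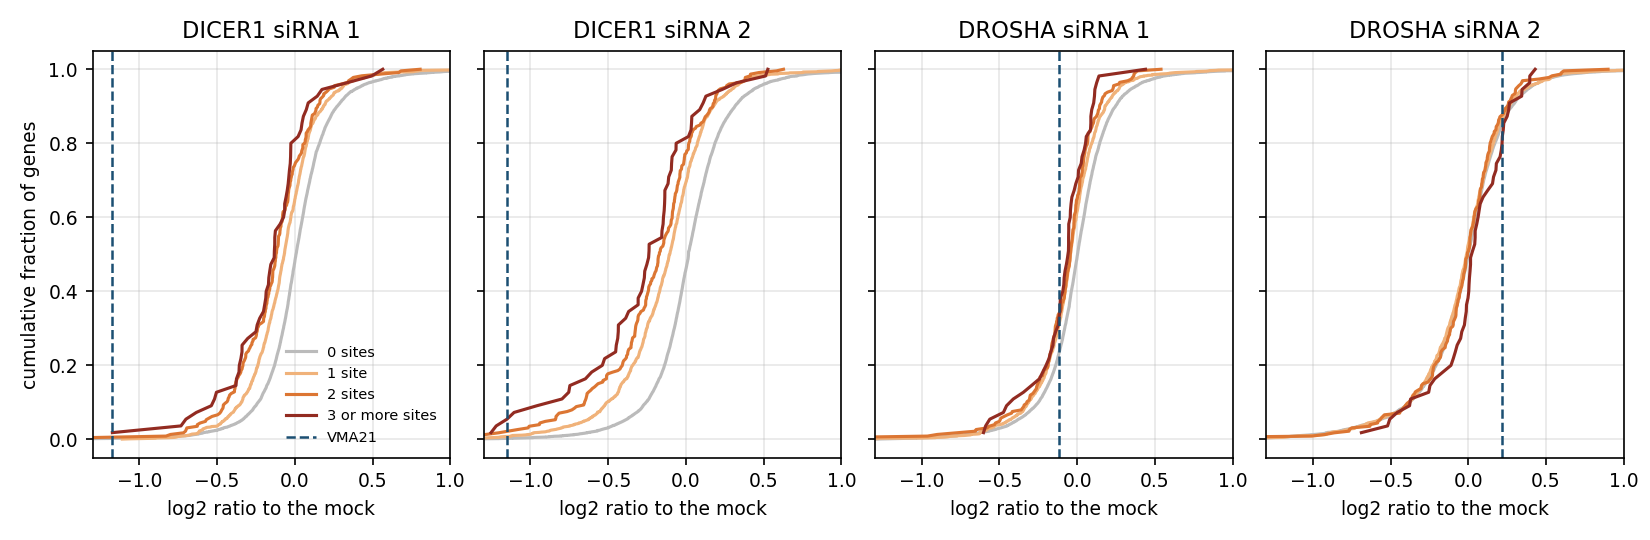
Cumulative fraction of genes (y) against their log2 ratio to the mock (x) in each siRNA library, for genes with 0, 1, 2 and 3 or more copies of the 7-base motif in the 3' UTR; the dashed line is VMA21 and ratios beyond the axis are not drawn. The curves of genes with sites lie to the left of the curve without sites in both DICER1 panels, the libraries from which the motif was picked. In the DROSHA siRNA 1 panel they do so by less (medians of -0.04 to -0.06 against 0.003). VMA21 lies at -1.17 and -1.15 in the DICER1 panels, against -0.12 and 0.22 in the DROSHA panels.

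Of 2545 mature human microRNAs in RefSeq (GRCh38.p14), 2 have a seed (bases 2 to 8, in capitals) that pairs with all 7 bases of the motif. No microRNA was measured in these libraries, and a match is only a match of letters.
hsa-miR-8061: cUUAGAUUagaggauauuguu
hsa-miR-4760-5p: uUUAGAUUgaacaugaaguuag

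The 5 genes whose 4 log2 ratios to the mock lay nearest to those of VMA21, by root mean square distance over the 4 siRNA libraries, were CHUK at 0.26, PTPN21 at 0.29, ZBTB41 at 0.29, MAD2L1 at 0.31 and B4GALT6 at 0.31. CHUK, an inhibitor-of-kappaB kinase, stood at 128 CPM in the mock, 78.7 and 63.3 CPM after DICER1 siRNA and 135 and 155 CPM after DROSHA siRNA. MAD2L1, a spindle checkpoint protein, stood at 181 CPM in the mock, 116.9 and 85.2 CPM after DICER1 siRNA and 177 and 175 CPM after DROSHA siRNA. In 4 of the 5 genes the level after DICER1 siRNA 2 was lower than after siRNA 1, whereas VMA21 and B4GALT6 were slightly higher after siRNA 2. The motif is present 2 times in the 3' UTR of CHUK, 1 time in PTPN21, 3 times in ZBTB41, 2 times in MAD2L1 and not in B4GALT6, beside 13.3% of all scanned genes with a copy. These genes and the motif were both picked for low values in the same DICER1 libraries, so nothing is read from this count. One site of CHUK and one of MAD2L1 are shown for their flanks beside those of VMA21.
CHUK site 1: catttgcttgcAATCTAAtctgaactgac
MAD2L1 site 1: gaggtgtcttcAATCTAAtggataaactt

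In DICER1 siRNA against mock the other 8 tested genes of the group had log2 fold changes from -0.43 to 0.25. Called genes are those with a Benjamini-Hochberg adjusted p under 0.05 over all tested genes in edgeR's quasi-likelihood test. In DROSHA siRNA against mock none of the 9 tested genes, VMA21 included, was called, beside 0.00817% of all tested genes. The edgeR unadjusted p was under 0.05 there for none of the 9, beside 3.69% of all genes (1.62% lower and 2.07% higher). None of the 8 genes besides VMA21 was called in DICER1 siRNA against mock, beside 0.00817% of all genes, or in DICER1 against DROSHA siRNA, beside 0.0163%. In DICER1 siRNA against mock the edgeR unadjusted p was under 0.05 for 1 lower gene of the 8 (ATP6V0A2) and 1 higher (ATP6V1B2), beside 5.46% of all genes (2.98% lower and 2.48% higher). In DICER1 against DROSHA siRNA it was for 1 higher (ATP6V0A1), beside 8.34% (4.32% lower and 4.02% higher). Nothing is read from these counts, since the genes were chosen with results of the DICER1 libraries known. DESeq2 called none of the 8 in any of the 3 comparisons, where it called 0.0409%, 0.00817% and 0.196% of all genes with an adjusted p. Nor did the edgeR likelihood ratio test, which called 0.237%, 0.0245% and 1.06%. The median log2 fold change of the 9 genes was -0.05 in DICER1 siRNA against mock and -0.002 in DROSHA siRNA against mock, beside 0.0005 and -0.005 over all tested genes.

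Subunit a anchors the proton path in V0 and comes in isoforms that go to different membranes. ATP6V0A1, the isoform rich in neurons, stood at 115 CPM in the mock, 132 and 138 CPM after DICER1 siRNA and 116 and 105 CPM after DROSHA siRNA. Both DICER1 libraries were above the other 3, by a log2 fold change of 0.23 ± 0.10 (SE) against the mock and 0.29 ± 0.08 against DROSHA siRNA. ATP6V0A2, the Golgi isoform, went the other way, at 94.3 CPM in the mock and 69.8 and 70.5 CPM after DICER1 siRNA. After DROSHA siRNA it stood at 101 and 75.3 CPM. Its log2 fold change was -0.43 ± 0.17 against the mock. The DROSHA libraries are far apart for this gene, siRNA 2 standing at 0.744 times siRNA 1, a log2 difference larger than that of 91.6% of genes with at least 5 CPM. Its 3' UTR of 3723 bases, the nearest in length to that of VMA21 among the 10 genes, holds no copy of the motif. Nothing is read from this, since the motif was picked from the DICER1 libraries.

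The rotor ring of V0 is built from proteolipids. ATP6V0B stood at 171 CPM in the mock, 173 and 178 CPM after DICER1 siRNA, and 183 and 178 CPM after DROSHA siRNA. All 4 siRNA libraries were above the mock, by no more than the fitted error in both comparisons (log2 fold changes of 0.04 ± 0.08 and 0.08 ± 0.08). ATP6V0C, the main ring proteolipid, had 7 counts in the mock, 4 and 12 after DICER1 siRNA and 7 and 3 after DROSHA siRNA, too few for a ratio. In GENCODE 29, 72.1% of its merged exon bases on chromosome 16 are shared with 2 other gene models on the same strand, AC093525.1 and AC093525.2. No source used here says how reads in shared exons were counted, so the low count is not read as a level of ATP6V0C mRNA.

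The accessory subunits are membrane proteins that help assembly and targeting of the pump, and both were slightly below the mock in the DICER1 libraries. ATP6AP1 stood at 219.9 CPM in the mock, 207 and 211 CPM after DICER1 siRNA and 213 and 226 CPM after DROSHA siRNA, a log2 fold change of -0.07 ± 0.08 in DICER1 siRNA against mock. For ATP6AP2 it was -0.08 ± 0.17, both within the error. ATP6AP2, also known as the prorenin receptor, stood at 174 CPM in the mock, 165 and 164 CPM after DICER1 siRNA and 133 and 182 CPM after DROSHA siRNA. Its 2 DROSHA libraries lie on both sides of the mock, with siRNA 2 at 1.36 times siRNA 1, a log2 difference larger than that of 92.2% of genes. Like VMA21, both lie on the X chromosome.

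In V1, ATP6V1A is the catalytic subunit, ATP6V1B2 the widely expressed form of the nucleotide-binding subunit B, and ATP6V1H a regulatory subunit needed for activity. ATP6V1B2 stood at 190.2 CPM in the mock, 215 and 238 CPM after DICER1 siRNA and 207 and 229.8 CPM after DROSHA siRNA. All 4 siRNA libraries exceeded the mock, with log2 fold changes of 0.25 ± 0.11 and 0.20 ± 0.11, and the DICER1 and DROSHA libraries overlapped. ATP6V1A stood at 132 CPM in the mock, 141 and 147 CPM after DICER1 siRNA and 130.3 and 141 CPM after DROSHA siRNA. ATP6V1H ran from 43.8 to 47.1 CPM over the 5 libraries, with all groups overlapping except that the mock was above both DICER1 values. The log2 fold changes of ATP6V1A and ATP6V1H in DICER1 siRNA against mock were 0.13 ± 0.10 and -0.05 ± 0.11.

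Counted by side, 5 of the 9 tested genes were below the mock in both DICER1 libraries (VMA21, ATP6AP1, ATP6AP2, ATP6V0A2 and ATP6V1H) and 4 were above it. Over all tested genes the shares were 36.4% below and 36.7% above. In DROSHA siRNA against mock none of the 9 was below in both libraries and 2 were above (ATP6V0B and ATP6V1B2), beside 32.5% and 31.5% of all genes. These comparisons share the 1 mock library. Between DICER1 and DROSHA libraries, 4 genes were lower in both DICER1 libraries (VMA21, ATP6AP1, ATP6V0A2 and ATP6V0B) and ATP6V0A1 was higher, beside 20% and 20.9% of all genes. VMA21 was picked for its low level after DICER1 siRNA, and the other genes were chosen with results known. Nothing is therefore read from the counts that use the DICER1 libraries.

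**Figure D3:**
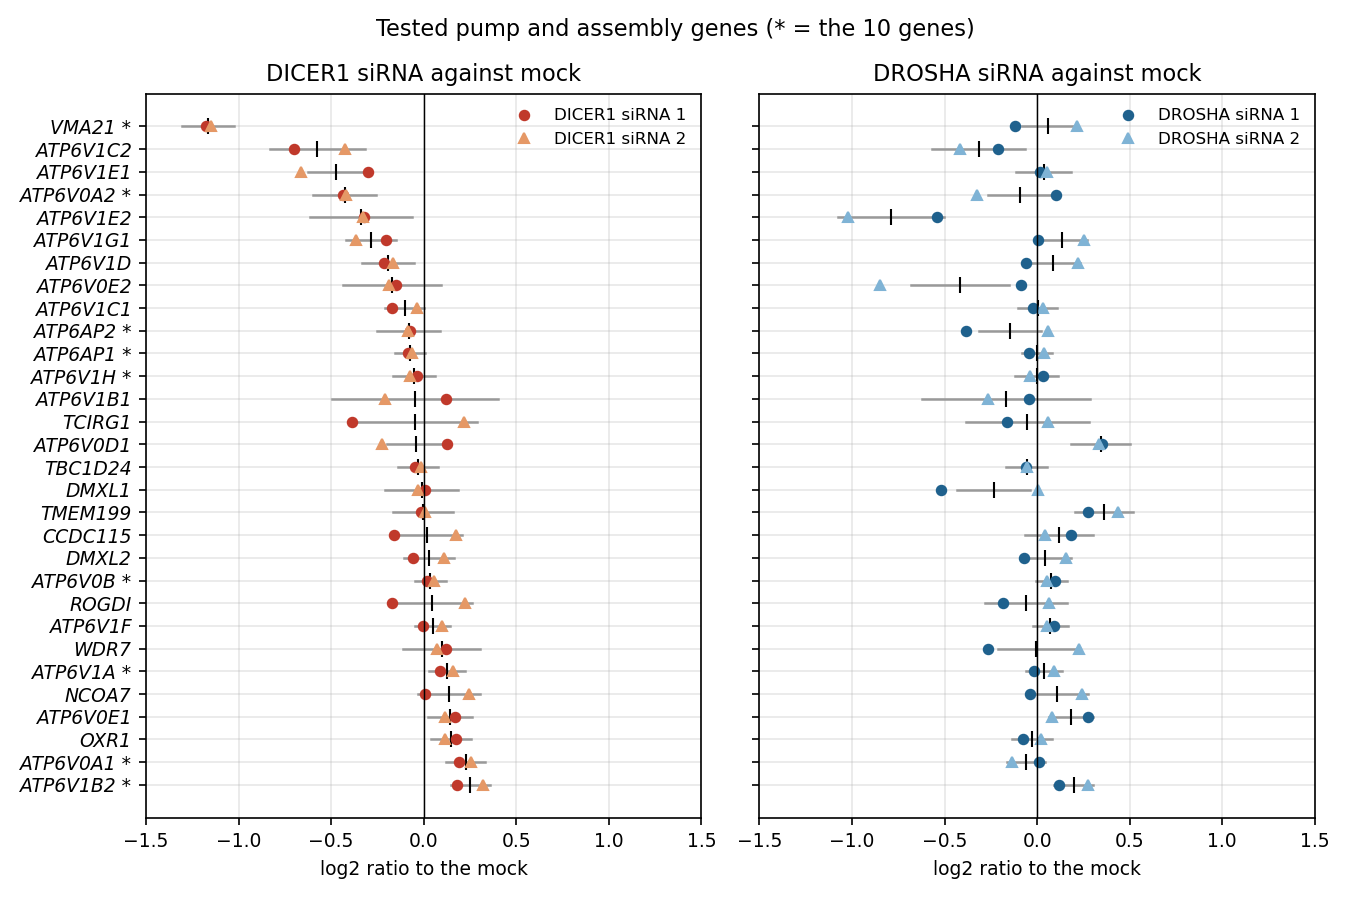
Log2 ratio to the mock of each tested pump subunit, accessory and assembly gene in the DICER1 (left) and DROSHA (right) siRNA libraries; symbols are single libraries, the tick is the fitted log2 fold change and the grey bar its SE. VMA21, which was picked for its low level after DICER1 siRNA, lies at -1.16 on the left and at 0.06 on the right. The other genes lie between -0.58 and 0.25 on the left.

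Per kilobase of merged exon, a scale that allows levels to be compared between genes, the mock held VMA21 at 35.9 CPM per kb, above 88.5% of tested genes. ATP6V0B at 48.5 and ATP6AP1 at 45.0 CPM per kb were higher, and ATP6V1A at 25.7, ATP6V1B2 at 24.3, ATP6AP2 at 18.2, ATP6V0A1 at 10.5, ATP6V1H at 9.04 and ATP6V0A2 at 6.87 CPM per kb were lower. In the DICER1 libraries VMA21 stood at 15.9 and 16.2 CPM per kb, below ATP6AP2 at 17.3 and 17.1. Among neighbours in this order, only the ranges of ATP6V1A and ATP6V1B2 over the 5 libraries overlapped, apart from VMA21, whose range also covers those of ATP6V1A and ATP6V1B2 and meets that of ATP6AP2. Exon lengths come from the GRCh38 annotation and count every annotated isoform, which lowers the values of genes with many.

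**Figure D4:**
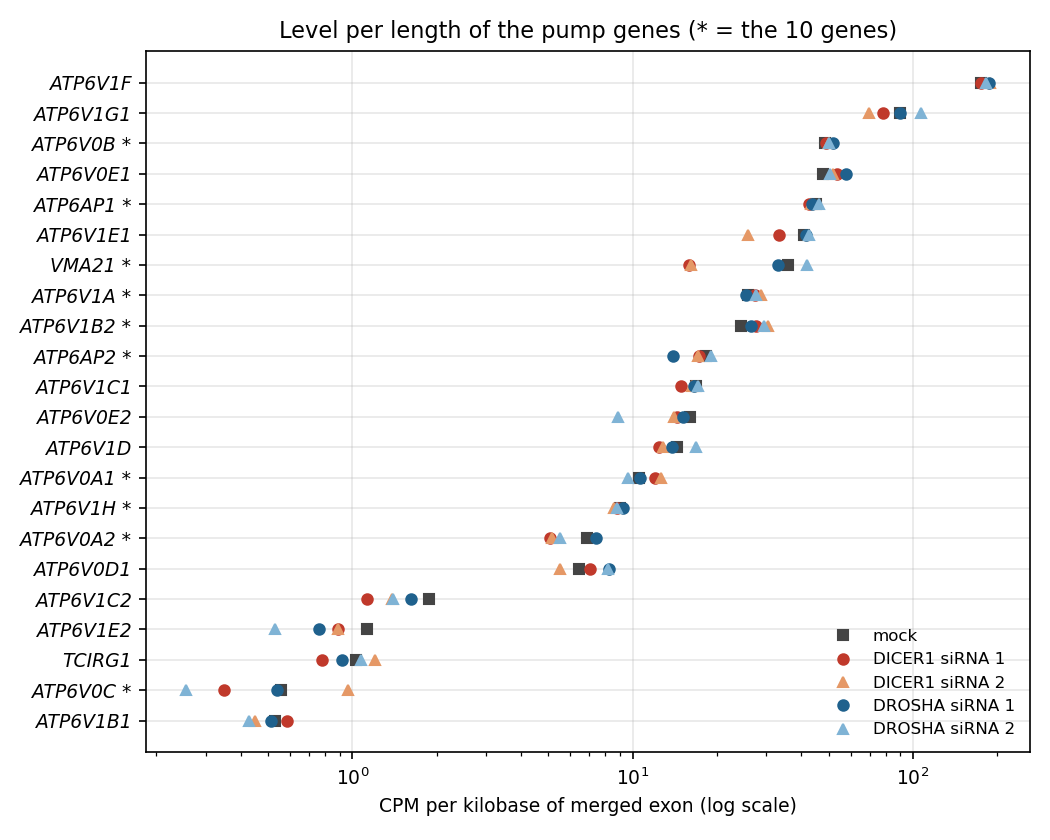
CPM per kilobase of merged exon (log scale) of pump genes with reads in the mock, 1 symbol per library, ordered by the mock level. VMA21 moves from 35.9 in the mock to 15.9 and 16.2 in the DICER1 libraries, and ATP6V1F is the highest at 175 in the mock.

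The 16 other subunit genes were all in the table, and 12 passed the filter. ATP6V0A4, ATP6V1G2 and ATP6V1G3 had no read in any library, where a count of 0 allows up to 3, and ATP6V0D2 had at most 2. None of the 12 was called in DICER1 siRNA against mock, DROSHA siRNA against mock or DICER1 against DROSHA siRNA. Of all tested genes 0.00817%, 0.00817% and 0.0163% were called there. With so few calls, a list without one, here or below, is not read as unchanged. Their median log2 fold change was -0.14 in DICER1 siRNA against mock, 0.02 in DROSHA siRNA against mock and -0.07 in DICER1 against DROSHA siRNA, beside 0.0005, -0.005 and 0.004 over all tested genes. In both DICER1 libraries 7 of the 12 were below the mock and 1 above it, beside 36.4% and 36.7% of all genes. In both DROSHA libraries 4 were below and 5 above it, beside 32.5% and 31.5%.

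ATP6V1E1, the tested subunit gene with the motif, stood at 131 CPM in the mock. It stood at 107 and 82.8 CPM after DICER1 siRNA and 133 and 136 CPM after DROSHA siRNA. Both DICER1 libraries lie below the other 3, siRNA 2 by more than siRNA 1. Its log2 fold change was -0.47 ± 0.15 in DICER1 siRNA against mock (edgeR adjusted p = 0.865) and -0.51 ± 0.12 in DICER1 against DROSHA siRNA (edgeR adjusted p = 0.444), neither past the test. ATP6V1G1, its partner in the stalk, has no copy of the motif and stood at 117 CPM in the mock, 101.7 and 90.8 CPM after DICER1 siRNA and 118 and 139.97 CPM after DROSHA siRNA. Its log2 fold change in DICER1 against DROSHA siRNA was -0.42 ± 0.11 (edgeR adjusted p = 0.474). ATP6V1C2, also without a copy, had the lowest log2 fold change of the 12 in DICER1 siRNA against mock, -0.58 ± 0.26 (edgeR adjusted p = 0.868). It had 55 counts in the mock, 30 and 40 after DICER1 siRNA, and 49 and 38 after DROSHA siRNA. For ATP6V1D, which has no copy either, the log2 fold change in DICER1 siRNA against mock was -0.19 ± 0.14. The motif was picked for low holders in the DICER1 libraries, so nothing is read from its presence or absence in these genes.

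ATP6V0D1, which joins the rotor to the ring, stood at 53.0 CPM in the mock, 57.9 and 45.4 CPM after DICER1 siRNA and 67.6 and 66.9 CPM after DROSHA siRNA, a log2 fold change of 0.34 ± 0.16 in DROSHA siRNA against mock (edgeR adjusted p = 0.978). ATP6V0E2, a small V0 subunit, stood at 108 CPM in the mock, 97.5 and 94.9 CPM after DICER1 siRNA, 101.7 CPM after DROSHA siRNA 1 and 59.9 CPM after DROSHA siRNA 2. Only the library of DROSHA siRNA 2 stands apart for this gene, at 0.590 times siRNA 1, a log2 difference larger than that of 98.1% of genes. ATP6V1E2, a minor form of subunit E, had 50 counts in the mock, 36 and 39 after DICER1 siRNA and 35 and 22 after DROSHA siRNA.

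VMA21 works in the endoplasmic reticulum with TMEM199 and CCDC115, whose log2 fold changes in DICER1 siRNA against mock were -0.005 and 0.02. TMEM199 stood at 16.3 CPM in the mock, 16.1 and 16.4 CPM after DICER1 siRNA and 19.7 and 22.2 CPM after DROSHA siRNA. CCDC115 stood at 22.0 CPM in the mock, 19.6 and 24.9 CPM after DICER1 siRNA and 25.0 and 22.7 CPM after DROSHA siRNA. Of 10 listed assembly and regulation genes, 9 were found in the table and tested, with log2 fold changes from -0.03 to 0.15 in DICER1 siRNA against mock and from -0.24 to 0.36 in DROSHA siRNA against mock. None was called in any of the 3 comparisons. The lowest of them after DROSHA siRNA, DMXL1, which helps to put V1 back on V0, stood at 95.3 CPM in the mock, 66.4 CPM after DROSHA siRNA 1 and 95.7 CPM after siRNA 2.

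The pump sits on the lysosome with the Ragulator and Rag GTPases, which pass amino acid signals to the growth kinase mTORC1. None of the 11 tested genes of this list was called in any of the 3 comparisons, and the median log2 fold change was 0.07 in DICER1 siRNA and 0.12 in DROSHA siRNA against mock. SLC38A9, an arginine sensor on the lysosome, stood at 26.996 CPM in the mock, 19.6 and 22.5 CPM after DICER1 siRNA and 30.9 and 31.0 CPM after DROSHA siRNA. FLCN, which acts on the Rag GTPases, was above the mock in all 4 siRNA libraries, at 44.5 CPM in the mock, 58.0 and 60.3 CPM after DICER1 siRNA and 51.5 and 58.0 CPM after DROSHA siRNA.

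Of 27 listed genes of lysosomal hydrolases and membrane proteins, 26 were tested and none was called. Their log2 fold changes ran from -0.20 to 0.28 in DICER1 siRNA against mock, with a median of 0.01. In DROSHA siRNA against mock the range was -0.57 to 0.38 and the median 0.06, with CTSA, a protective protease, at 0.38 ± 0.15 (edgeR adjusted p = 0.978). The transcription factors that drive lysosomal genes, TFEB, TFE3 and MITF, had log2 fold changes between -0.15 and -0.09 in DICER1 siRNA against mock and between -0.09 and -0.05 in DROSHA siRNA against mock, none called. Nor was any of the 7 tested endosomal and lysosomal ion carriers, with medians of 0.05 and 0.18.

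Of the 16 autophagy genes, all were tested and none was called, with a median log2 fold change of 0.08 in DICER1 siRNA against mock and 0.07 in DROSHA siRNA against mock. SQSTM1, the cargo receptor p62, was the lowest, at 154 CPM in the mock, 121 CPM after DICER1 siRNA 1, 58.8 CPM after DICER1 siRNA 2, and 166 and 173 CPM after DROSHA siRNA. Its DICER1 libraries are far apart, so that the log2 fold change of -0.77 carries an SE of 0.34 (edgeR adjusted p = 0.865). Its 3' UTR holds 1 copy of the motif, beside 13.3% of all scanned genes with a copy. The motif was picked for low holders in the DICER1 libraries, so nothing is read from this copy. GABARAPL1, a protein of autophagosome membranes, stood at 34.4 CPM in the mock, 39.5 and 47.6 CPM after DICER1 siRNA and 31.9 and 32.4 CPM after DROSHA siRNA, with a log2 fold change of 0.44 ± 0.12 in DICER1 against DROSHA siRNA (edgeR adjusted p = 0.488).

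Over these 7 lists of other pump, lysosome and autophagy genes, 84 genes were tested. In DICER1 siRNA against mock the edgeR unadjusted p was under 0.05 for 2 lower genes (2.38% of the 84, beside 2.98% of all genes) and 1 higher (1.19%, beside 2.48%). In DROSHA siRNA against mock it was for 1 lower (1.19%, beside 1.62%) and 5 higher (5.95%, beside 2.07%). In DICER1 against DROSHA siRNA it was for 10 lower (11.9%, beside 4.32%) and 1 higher (1.19%, beside 4.02%). The lists were chosen with earlier results known, and these shares were not tested. DESeq2 called none of the 84 in any of the 3 comparisons, where it called 0.0409%, 0.00817% and 0.196% of all genes. The edgeR likelihood ratio test called 1, SLC38A9, which was lower in DICER1 than in DROSHA siRNA libraries. That is 1.19% of the 84, beside 1.06% of all genes in that comparison, so nothing is read from this call.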

How the data were processed

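Poly(A) RNA of 5 libraries was measured, and the file the authors deposited holds whole-number counts by gene symbol, not normalized. The submitters' processing notes list CASAVA 1.8.2, STAR, HTSeq, edgeR and hg19 without roles. No source used here states the annotation or strand setting, so reads of a gene and of an antisense or overlapping neighbour may be mixed. Each of the 5 count columns was assigned by its header, and 0 were unused. The filter asked for 1 CPM or more in 2 or more libraries and kept 12234 of 18257 genes. All libraries entered a single edgeR 4.0.16 model (R 4.3.3) by group, with TMM scaling and quasi-likelihood F tests. Since there is 1 mock library, the error rests on the siRNA pairs (2 residual degrees of freedom) and is taken to hold for the mock too. SEs are the log2 fold change over the square root of F. Single-library log2 ratios use a prior count of 2. Alternatives were DESeq2 1.42.0, its size factors, no filter, the likelihood ratio test, only the compared groups, a replicate block, and leaving out each siRNA library.

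Levels per kilobase and 3' UTRs, the longest per symbol, came from GENCODE 29 on GRCh38. Motifs of 7 bases held by at least 50 genes were ranked by the difference in mean log2 ratio between holders and other genes, over its standard error.

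The genes and lists were chosen with earlier results of these data known. Genes named are DICER1 and DROSHA, the 10 genes, up to 4 with the smallest p per list, and the 5 nearest to VMA21. TLDC1, LAMTOR4 and LAMTOR5 were not matched in the table. ATP6V0A4, ATP6V0D2, ATP6V1F, ATP6V1G2 and ATP6V1G3 are outside this rule and were chosen after their values were seen. Sites on chromosome 8 are not printed.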

Additional observations from a re-analysis of the deposited data

How the results depend on the processing

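In DICER1 siRNA against mock the log2 fold change of VMA21 lay between -1.17 and -1.16 under every alternative run. None of the other 8 tested genes was called in any comparison under any alternative run. ATP6V0C passed the filter in no run that had one. It entered the fit without a filter, where its result was not looked at. In DROSHA siRNA against mock VMA21 stood at -0.12 without DROSHA siRNA 2 and at 0.21 without siRNA 1, and in DICER1 against DROSHA its range was -1.38 to -1.05. Without a filter the genes called went from 1 to 3 in DICER1 siRNA against mock and from 2 to 12 in DICER1 against DROSHA siRNA. The likelihood ratio test called 29, 3 and 130 genes in DICER1 against mock, DROSHA against mock and DICER1 against DROSHA, DESeq2 5, 1 and 24, and the fit of only the compared groups called 4 in DICER1 against mock. Leaving out 1 siRNA library gave 0 to 5 genes in DICER1 against mock, 1 to 225 in DROSHA against mock (225 without DROSHA siRNA 1) and 1 to 427 in DICER1 against DROSHA (427 without DROSHA siRNA 1). The cause was not tested. The median of the 9 tested genes then ran from -0.065 to -0.033 in DICER1 against mock, from -0.0032 to 0.052 in DROSHA against mock and from -0.033 to -0.020 in DICER1 against DROSHA. The labels do not say whether equal siRNA numbers pair the libraries. Across genes the siRNA 1 minus siRNA 2 differences of DICER1 and DROSHA correlated at 0.024. This cannot settle the question, since the siRNAs differ too. With the replicate block 4 genes were called in DICER1 against DROSHA instead of 2, and the log2 fold change of VMA21 was -1.22. A mock library that stands apart for its own reasons would look the same as a response to all 4 siRNAs.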
